A study of Mus musculus with 16 samples.

Results

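The nuclear-encoded subunits of the respiratory chain and of ATP synthase were followed in the livers of 16 mice. Members were found by gene symbol: Nduf followed by a, b, c, s or v and a number, Sdha to Sdhd, symbols starting with Uqcr, Cox with a number from 4 to 8 and a letter from a to c, and symbols starting with Atp5, without pseudogenes. This gave 79 genes of the 19938 that the array annotation names singly, each represented by its brightest probe set. Of these, 35 belong by symbol to complex I, 4 to complex II, 8 to complex III, 15 to complex IV and 17 to complex V. The study crossed a Gli2 null allele with diet. Gli2 is a transcription factor of hedgehog signalling. The 4 groups of 4 animals were wild-type mice on control diet (WT_control), wild-type mice on high-fat diet (WT_HFD), mice heterozygous for the Gli2 null allele on control diet (Het_control) and such heterozygotes on high-fat diet (Het_HFD). The diets were given for 12 weeks, all animals were adults, and 1 array was hybridised with total liver RNA from each animal. The null allele was carried on both diets in the heterozygotes, and no label limits it to a cell type. The genotype label of the wild-type animals names Gli1 in place of Gli2, and they are treated here as wild type. No sex, strain or exact age is given in the labels.

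The respiratory chain passes electrons from NADH (complex I) and succinate (complex II) through ubiquinone to complex III, and from there through cytochrome c to oxygen at complex IV. Complexes I, III and IV pump protons across the inner mitochondrial membrane, and complex V uses the gradient to make ATP. All of these complexes except complex II also hold subunits encoded by mitochondrial DNA, and the liver uses the chain to burn fatty acids as well as sugars and amino acids.

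Levels are log2 RMA values, so a difference of 1 is a doubling, and levels of different probe sets are not compared with each other. Het_control 2, animal 2 of the heterozygous control group, differed most from the rest. Its correlation with them over all genes was 0.961 to 0.979, against 0.9905 to 0.9975 among the other 15, and its values had an interquartile range of 1.95, where those of the others had 2.40 to 2.60. Among the 79 members, 39 were lower in this array than in any other and 13 were higher than in any other. Its 39 brighter members lay a median of -0.31 from their means over the other 15 arrays, and its 40 dimmer members -0.01. Values without it stand beside most, but not all, of the heterozygous results below. Hepatocyte markers were bright in every group: the mean level of 7 measured markers was 13.56 to 13.63 in WT_control, 13.56 to 13.61 in WT_HFD, 13.49 to 13.65 in Het_control and 13.57 to 13.64 in Het_HFD. The 8 measured macrophage markers differed between the heterozygous groups, with mean levels of 10.03 to 10.63 in Het_control and 10.79 to 11.16 in Het_HFD. Of the 8, 6 were called higher on high-fat diet by the test described below, where 1.5% of all genes were. Without Het_control 2 there were 4 called higher, where 0.873% of all genes were called in either direction. The part of these markers in the members' differences was not tested. In wild type their mean was 10.58 to 10.76 in WT_control and 10.35 to 10.94 in WT_HFD. The Gli2 probe set averaged 7.57 ± 0.02 (SD, n = 4) in WT_control and 7.70 ± 0.30 in Het_control, where it was highest in Het_control 2, and does not check the labels, since the sources used here do not give the deleted stretch.

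In heterozygous mice on the high-fat diet, 2 of the 79 members passed the test, both of them core subunits of complex I, and 26 of the 35 complex I genes were higher in value. Ndufs8, an iron-sulfur subunit of the arm that reduces ubiquinone, and Ndufv1, the flavin-bearing subunit that oxidises NADH, rose by 1.33-fold and 1.20-fold. No member fell past the threshold. A gene was called at a limma p-value under 0.05 after Benjamini-Hochberg adjustment over all 19938 genes, and 2.22% of all genes were called in this comparison (1.5% higher and 0.712% lower), so 2 of 79 is near the background. In liver RNA, fewer cells of a type cannot be told apart from less RNA per cell.

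Ndufs8 read 11.46, 11.21, 11.54 and 11.88 in the 4 Het_control arrays and 11.85, 11.94, 11.98 and 11.95 in the 4 Het_HFD arrays. The heterozygous groups overlapped, because Het_control 4 lay among the high-fat arrays, and Het_control 2 was the lowest of all 16. The diet difference in heterozygotes was 0.41 (SE 0.10, 95% interval 0.20 to 0.62, limma adjusted p = 0.0473). Among wild-type animals the gene read 11.62, 11.56, 11.65 and 11.77 in WT_control and 11.83, 11.81, 11.86 and 11.75 in WT_HFD. Here too 1 high-fat array lay inside the control range, and the difference of 0.16 (SE 0.10, 95% interval -0.05 to 0.37, limma adjusted p = 0.872) was not called. The difference between the genotypes in their response to diet was 0.24 (SE 0.14, adjusted p = 0.632), or 0.14 without Het_control 2, so the responses were not shown to differ.

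Ndufv1 read 11.41, 11.31, 11.61 and 11.60 in Het_control and 11.75, 11.75, 11.75 and 11.74 in Het_HFD. All 4 high-fat arrays lay above all 4 control arrays, with a spread of only 0.01 (SD, n = 4) on the high-fat diet against 0.15 on control. The difference was 0.26 (SE 0.07, 95% interval 0.13 to 0.40, limma adjusted p = 0.0482). In wild type Ndufv1 read 11.48, 11.53, 11.58 and 11.49 in WT_control and 11.69, 11.71, 11.75 and 11.64 in WT_HFD. Those groups did not overlap either, and the difference of 0.18 (SE 0.07, limma adjusted p = 0.622) was not called. The genotypes' responses differed by 0.09 (SE 0.09, adjusted p = 0.749), or 0.03 without Het_control 2.

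Both calls were close to the threshold. Without Het_control 2, Ndufs8 differed by 0.30 (limma adjusted p = 0.0738) and Ndufv1 by 0.21 (adjusted p = 0.0705), so neither was called, and 0.873% of all genes were. Of the 16 fits that each left out 1 array, Ndufs8 and Ndufv1 passed in 1, the fit without Het_control 4, where adjusted p was 0.00219 for Ndufs8 and 0.0146 for Ndufv1. In the other 15 fits adjusted p reached at most 0.121 and 0.119. The differences themselves ranged from 0.30 to 0.53 for Ndufs8 and from 0.21 to 0.31 for Ndufv1, and stayed positive. Only leaving out a heterozygous array could change them, since each group has its own mean in the fit.

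**Figure D1:**
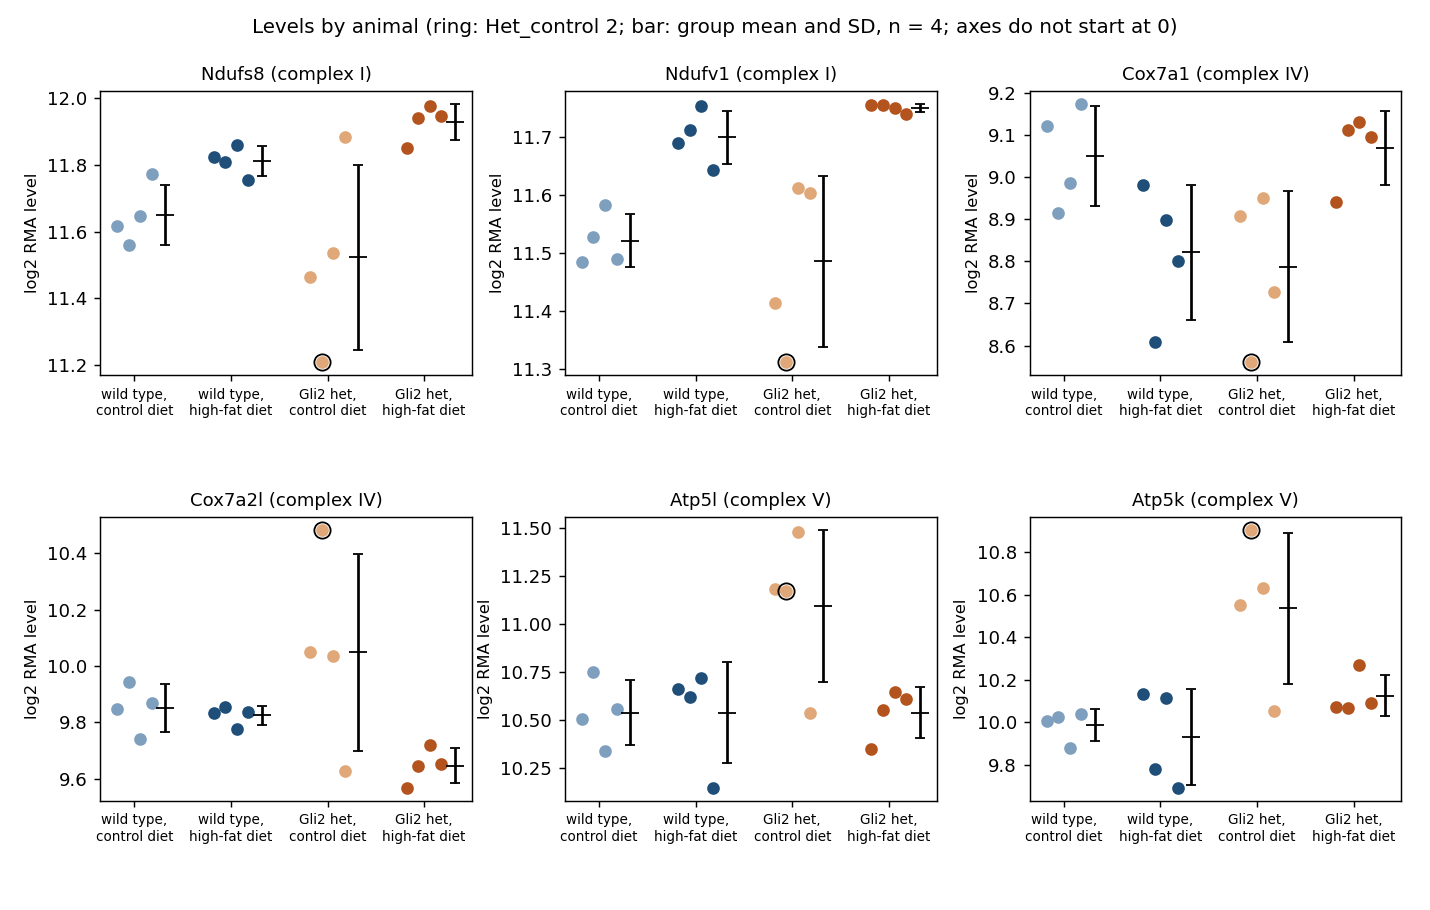
Log2 RMA levels (vertical axes, which do not start at 0) of 6 members in each of the 16 arrays, by genotype and diet; points are animals, bars are group means with SD (n = 4), and the ring marks Het_control 2. Ndufv1 separates the 2 heterozygous diets completely, while Het_control 4 sits with the high-fat arrays for Ndufs8, Cox7a2l, Atp5l and Atp5k.

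The promoters of both called genes are shown because the pair rose together and lie close together on mouse chromosome 19, and those of Ndufs5 and Atp5k because they hold a match to the binding motif of NRF1, a transcription factor known for driving respiratory chain genes. The sequences are RefSeq's, build GRCm38.p6, the 250 bases before each start, on the minus strand, 5' to 3': Ndufs8 at chr19:3912775-3913024, Ndufv1 at chr19:4012756-4013005, Ndufs5 at chr4:123718187-123718436 and Atp5k at chr5:108434400-108434649. Capitals mark the NRF1 motif.
Ndufs8: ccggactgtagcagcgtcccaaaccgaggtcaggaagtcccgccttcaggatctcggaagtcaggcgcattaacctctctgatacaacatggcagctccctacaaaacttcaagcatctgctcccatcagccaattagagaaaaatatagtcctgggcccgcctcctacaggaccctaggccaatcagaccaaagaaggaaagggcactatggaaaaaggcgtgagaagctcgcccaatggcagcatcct
Ndufv1: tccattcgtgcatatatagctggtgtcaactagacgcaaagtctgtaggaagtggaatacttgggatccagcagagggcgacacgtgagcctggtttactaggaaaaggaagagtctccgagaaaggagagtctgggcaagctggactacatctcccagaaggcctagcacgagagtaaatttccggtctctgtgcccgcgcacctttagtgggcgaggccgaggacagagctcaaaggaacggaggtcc
Ndufs5: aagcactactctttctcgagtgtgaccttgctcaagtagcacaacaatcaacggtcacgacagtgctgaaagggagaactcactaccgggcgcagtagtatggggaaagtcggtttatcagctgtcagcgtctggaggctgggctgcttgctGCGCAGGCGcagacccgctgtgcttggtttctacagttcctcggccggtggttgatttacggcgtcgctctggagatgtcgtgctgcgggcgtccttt
Atp5k: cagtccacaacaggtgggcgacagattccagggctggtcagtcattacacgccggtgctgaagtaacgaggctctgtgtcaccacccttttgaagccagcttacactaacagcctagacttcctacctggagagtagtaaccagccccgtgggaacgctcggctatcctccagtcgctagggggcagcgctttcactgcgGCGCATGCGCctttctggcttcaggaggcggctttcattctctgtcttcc
In Ndufs5 the motif lies 98 to 90 bases before the start. In Atp5k it is found on each strand, at 50 to 42 and 49 to 41 bases before the start, and the capitals join both matches. The windows printed for Ndufs8 and Ndufv1 hold none of the 4 motifs searched. Both Ndufs8 and Atp5k have an ETS match that ends beyond the printed bases, at or after the start.

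RefSeq promoters matched 66 of the 79 members, and each window of 300 bases (250 before and 50 after the start) was searched on both strands. The NRF1 motif GCGCANGCG was in 19 of the 66 (28.8%) against 7.03% of 27025 genes with a promoter in the table. The ETS motif CCGGAAG, bound by GABPA, another activator of respiratory genes, was in 17 members (25.8%) against 9.93% of genes. A YY1 motif, AANATGGCG, was in 10 members (15.2%), 7 of complex I and 3 of complex V, against 2.76% of genes. The ESRRA motif TCAAGGTCA was in 2 members (3.03%) against 0.466%. By complex, NRF1 matches were in 7 of 31 members of complex I, 2 of 3 of complex II, 2 of 5 of complex III, 1 of 12 of complex IV and 7 of 15 of complex V. A match is a description of the letters and not a shown binding site. Ndufs5 was higher and Atp5k lower in value on the high-fat diet in heterozygotes. This pair was chosen after its values were seen, so its directions do not describe the 19 members with the motif.

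Between Ndufs8 and Ndufv1 on chromosome 19 lie 11 genes in the RefSeq order, 8 of them protein-coding, of which 7 were measured. These neighbours were looked at after the values of the pair were seen. None of the 7 was called by diet in heterozygotes and 5 were higher in value, from -0.22 (SE 0.07) for Doc2g to 0.37 (SE 0.10, limma adjusted p = 0.0520) for Acy3. Without Het_control 2 again none was called and 5 were higher in value, with Doc2g at -0.14 and Acy3 at 0.25.

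Across the complexes, the median heterozygous diet difference was positive for complexes I, II and V and negative for III and IV. The median over all 79 members was 0.08 with 49 higher in value, beside -0.05 over all genes. Without Het_control 2 it was 0.03 with 42 higher, beside -0.02. The median was 0.14 for complex I (26 of 35 higher), 0.10 for complex II (4 of 4), -0.03 for complex III (3 of 8), -0.07 for complex IV (5 of 15) and 0.09 for complex V (11 of 17). Without Het_control 2 these became 0.06, 0.09, -0.05, -0.05 and 0.05, and after another round of quantile normalization, which gives every array the same distribution of values, 0.08, 0.03, -0.11, -0.08 and 0.01. The sign of each median was therefore kept under both, while the sizes of I, II and V shrank. For complex III the sign depended on the measure. Its mean level over the members was 11.749 in Het_control and 11.759 in Het_HFD. Leaving out Het_control 2 put the Het_control mean at 11.797. Before adjustment 24 members were higher and 9 lower at p under 0.05, against 13.9% and 17.7% of all genes, and 14 of the 24 were in complex I. Without Het_control 2 these counts were 12 and 6, where 18.7% of all genes passed in either direction. In 9 members all Het_HFD arrays lay above all Het_control arrays and in 4 below, where 6.58% and 7.15% of all genes did so.

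In wild-type mice no member was called on the same diet, as for 0% of all genes, and 2 members were higher and 1 lower at an unadjusted limma p under 0.05, against 6.43% of all genes in both directions together. The median difference was 0.01 with 46 of 79 higher, beside -0.01 over all genes, and it turned to -0.00 with 37 higher after another round of quantile normalization. Complex I had a median of 0.04 (24 of 35 higher), complex II 0.05 (3 of 4), complex III 0.05 (5 of 8), complex IV -0.04 (5 of 15) and complex V 0.00 (9 of 17). After that second normalization complex V was at -0.01 and the others kept their sign. The wild-type and heterozygous diet comparisons share no arrays. The sign was the same in both for 52 of the 79 members (65.8%), and for 69.8% of all genes, so the members' share was near that of genes in general. Within complex I it was the same for 25 of 35, with 20 higher in both, and within complex IV for 9 of 15, with 7 lower in both.

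**Figure D2:**
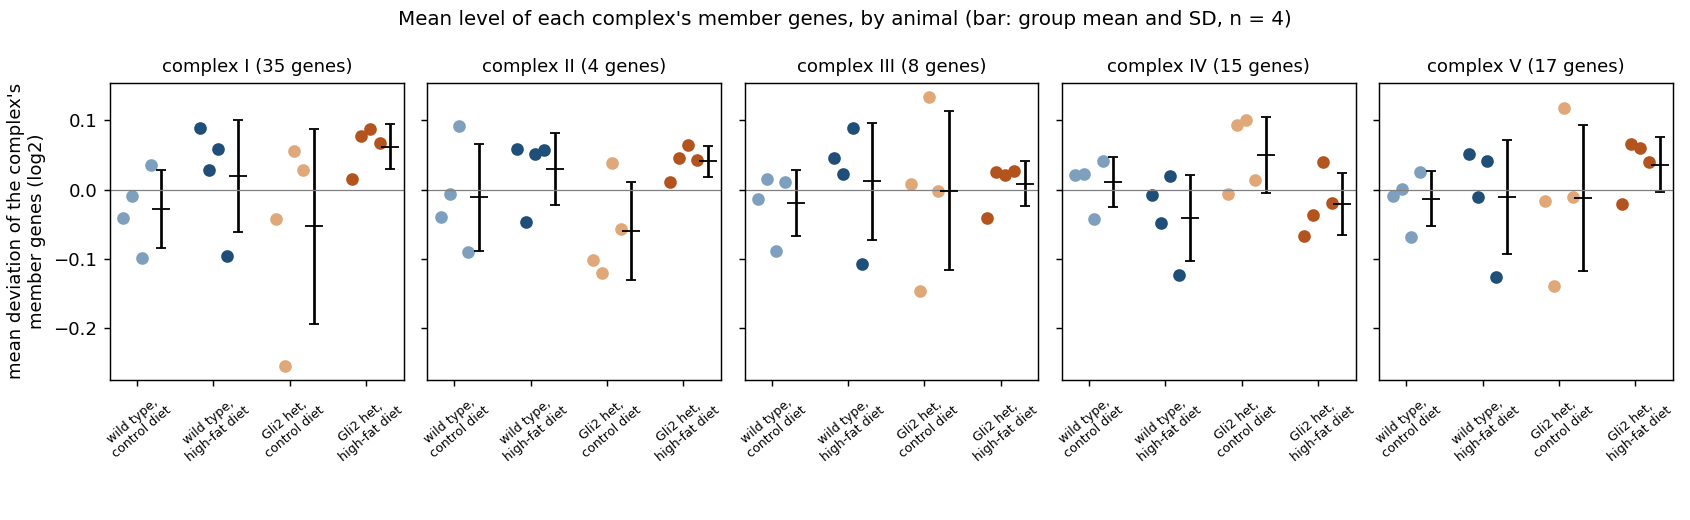
Mean deviation of each complex's member genes from their 16-array means (log2, vertical axis) in each animal, by genotype and diet; bars are group means with SD (n = 4). For complex I the Het_control arrays run from -0.25 to 0.06 and the Het_HFD arrays from 0.01 to 0.09, so the groups overlap.

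**Figure D3:**
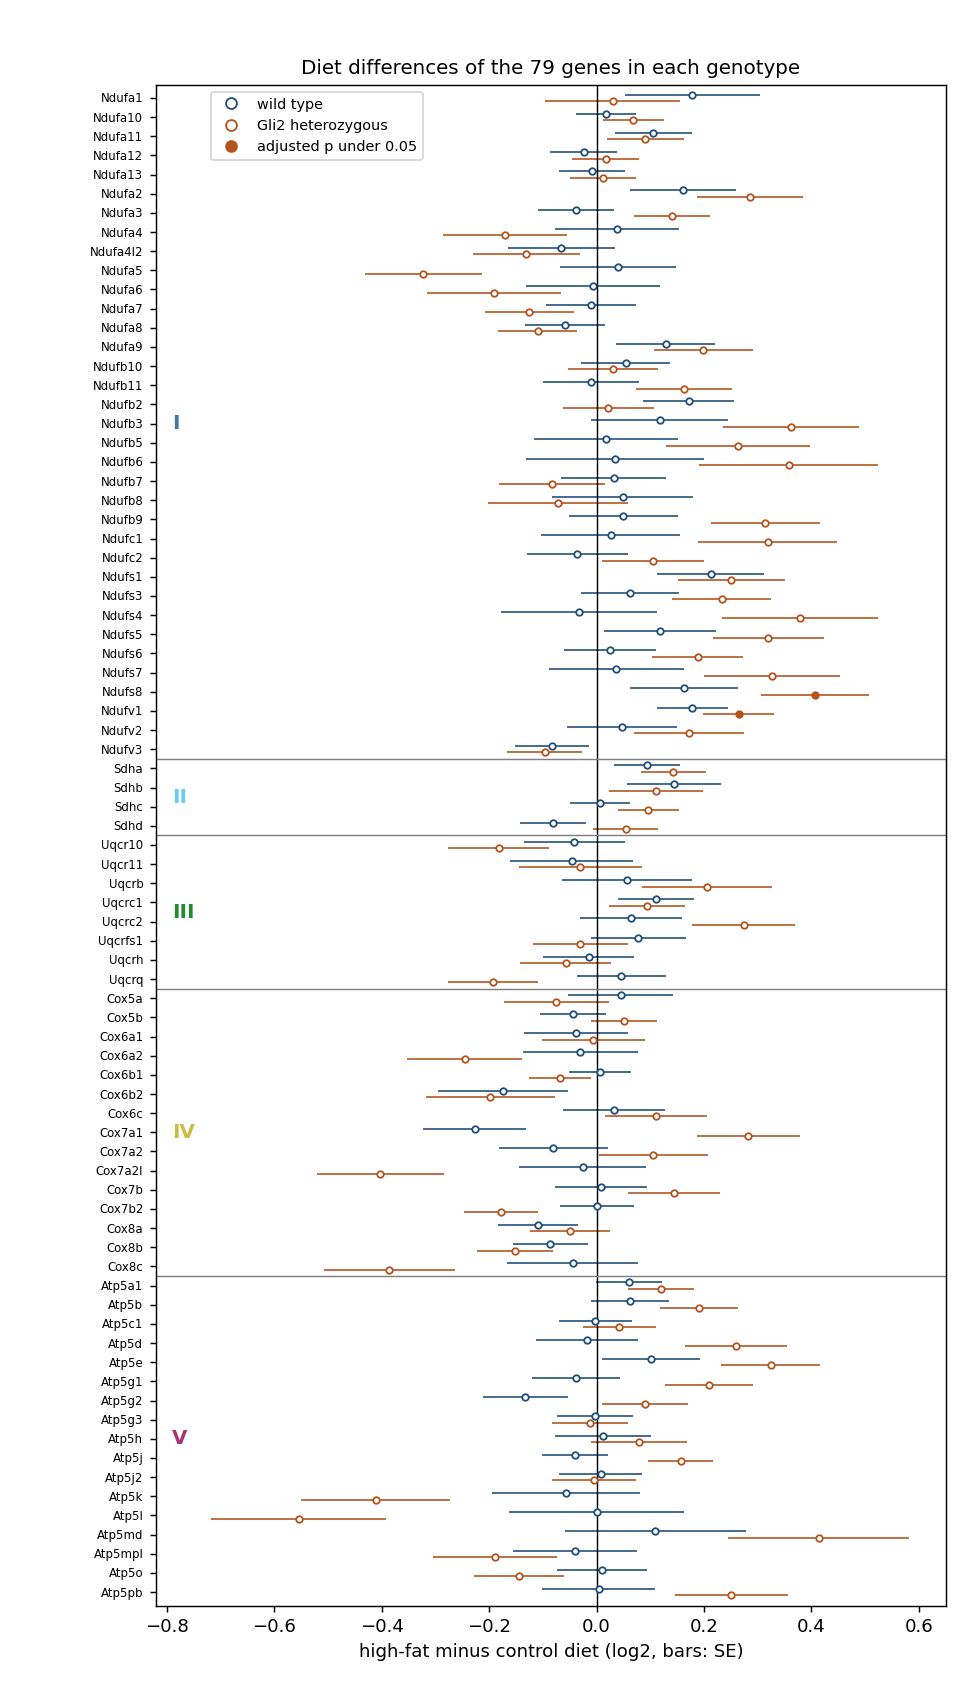
High-fat minus control differences (log2, horizontal axis, bars are SE) of each of the 79 members in wild type and in Gli2 heterozygotes, ordered by complex; filled points have a limma adjusted p under 0.05. The 2 filled points are Ndufs8 and Ndufv1 in heterozygotes.

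The 6 nuclear-encoded core subunits of complex I analysed here were higher in value on the high-fat diet in both genotypes. Core subunits are those conserved from bacteria, and most of the nuclear-encoded ones bind the flavin or iron-sulfur clusters. The 6 were Ndufs1, Ndufs3, Ndufs7, Ndufs8, Ndufv1 and Ndufv2. In heterozygotes all 6 were higher in value on high-fat diet, from 0.17 to 0.41 with a median of 0.26 (0.15 without Het_control 2, still 6 of 6). In wild type all 6 were also higher in value, from 0.04 to 0.21 with a median of 0.11. The mean level of the 6 was 11.82, 11.80, 11.84 and 11.81 in WT_control and 11.94, 11.95, 11.96 and 11.89 in WT_HFD. It was 11.72, 11.35, 11.80 and 11.91 in Het_control and 11.98, 11.99, 11.95 and 11.96 in Het_HFD. On this mean, all high-fat arrays lay above all control arrays within each genotype. The other 29 complex I members had median differences of 0.03 in wild type (18 higher) and 0.07 in heterozygotes (20 higher). No test was run over the 6 genes, which share the same animals.

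Among the core subunits that were not called, Ndufs1, which carries iron-sulfur clusters next to the NADH-oxidising site, read 10.58, 10.65, 10.71 and 10.52 in WT_control and 10.76, 10.76, 10.76 and 11.03 in WT_HFD. These groups did not overlap, and the difference was 0.21 (SE 0.10, limma adjusted p = 0.775). In heterozygotes it was 0.25 (SE 0.10, adjusted p = 0.118), and 0.13 without Het_control 2. Ndufs7, which holds the last iron-sulfur cluster before ubiquinone, differed by 0.33 in heterozygotes (SE 0.13, adjusted p = 0.112), and its lowest array, at 12.45, was Het_control 2. Without that array the difference was 0.16. Ndufs3 of the same arm differed by 0.23 (SE 0.09, adjusted p = 0.115) and Ndufv2 of the NADH-oxidising arm by 0.17 (SE 0.10, adjusted p = 0.233), or 0.11 and 0.05 without Het_control 2.

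Accessory subunits of complex I, which surround the core, went in both directions in heterozygotes. Ndufb9 of the membrane arm read 12.16, 11.75, 12.25 and 12.44 in Het_control and 12.40, 12.46, 12.50 and 12.50 in Het_HFD. Only Het_control 4 reached the high-fat range, and the difference was 0.31 (SE 0.10, limma adjusted p = 0.0814). Ndufs5 read 9.30, 9.06, 9.52 and 9.67 in Het_control and 9.53, 9.76, 9.77 and 9.76 in Het_HFD, a difference of 0.32 (SE 0.10, adjusted p = 0.0825). Ndufa5 of the peripheral arm went the other way, at 9.75, 10.32, 10.11 and 9.77 in Het_control and 9.53, 9.71, 9.78 and 9.64 in Het_HFD. Its high levels were in Het_control 2 and 3, and the difference was -0.32 (SE 0.11, adjusted p = 0.0889). Without Het_control 2 the differences of Ndufb9, Ndufs5 and Ndufa5 were 0.18, 0.21 and -0.21. Ndufs4, a subunit of the peripheral arm, differed by 0.38 (SE 0.14, adjusted p = 0.111) and by 0.18 without Het_control 2. The accessory subunit with the smallest p for wild type was Ndufb2 of the membrane arm, at 0.17 (SE 0.08, adjusted p = 0.794).

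Complex II, succinate dehydrogenase, is shared with the citric acid cycle. Sdha, its flavoprotein, read 12.83, 12.84, 12.84 and 12.76 in WT_control and 12.90, 12.86, 12.87 and 13.03 in WT_HFD. It read 12.73, 12.62, 12.85 and 12.82 in Het_control and 12.86, 12.90, 12.90 and 12.93 in Het_HFD. In both genotypes every high-fat array lay above every control array, by a small margin. In wild type the difference was 0.09 (SE 0.06, limma adjusted p = 0.880). In heterozygotes it was 0.14 (SE 0.06, limma adjusted p = 0.132), or 0.10 without Het_control 2. Sdhb, the iron-sulfur subunit, differed by 0.14 in wild type (SE 0.09, adjusted p = 0.863), with the groups overlapping.

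In complex III, the ubiquinol to cytochrome c step, the 2 core proteins Uqcrc1 and Uqcrc2 and the small subunit Uqcrb were higher in value in heterozygotes on high-fat diet and the other 5 members lower, with and without Het_control 2. Uqcrc2, a core protein, read 12.86, 12.37, 12.84 and 12.99 in Het_control and 13.07, 13.02, 13.01 and 13.05 in Het_HFD. The groups did not overlap, with Het_control 2 far below the rest, and the difference was 0.27 (SE 0.10, limma adjusted p = 0.0950), or 0.14 without it. In wild type Uqcrc2 differed by 0.06 (SE 0.10). Uqcrq, a small subunit, read 11.99, 12.16, 12.13 and 11.99 in Het_control and 11.76, 11.90, 11.98 and 11.86 in Het_HFD. Here the high-fat arrays were the lower ones, without overlap, and the difference was -0.19 (SE 0.08, adjusted p = 0.136), or -0.16 without Het_control 2. Uqcrc1, the other core protein, had the smallest p of the complex in wild type, at 0.11 (SE 0.07, adjusted p = 0.879).

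Complex IV, cytochrome c oxidase, was the complex with the largest share of lower members in heterozygotes, and it includes isoform pairs of which some are known from other tissues. Cox7a2l, a protein that joins complexes III and IV into supercomplexes, read 10.05, 10.48, 10.04 and 9.63 in Het_control and 9.57, 9.64, 9.72 and 9.65 in Het_HFD. Het_control 2 was the highest of all arrays and Het_control 4 lay in the high-fat range. The difference was -0.40 (SE 0.12, limma adjusted p = 0.0668), or -0.26 without Het_control 2 (adjusted p = 0.120) and -0.54 without Het_control 4 (adjusted p = 0.00397). The level was 9.74 to 9.95 in WT_control and 9.78 to 9.85 in WT_HFD, with the high-fat range inside the control range.

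Cox7a1, the form of subunit VIIa known from heart and muscle, was the member with the smallest p for a diet response that differed between the genotypes. It read 9.12, 8.92, 8.99 and 9.17 in WT_control and 8.98, 8.61, 8.90 and 8.80 in WT_HFD. In heterozygotes it read 8.91, 8.56, 8.95 and 8.73 in Het_control and 8.94, 9.11, 9.13 and 9.09 in Het_HFD. The high-fat arrays were mostly the lower ones in wild type and mostly the higher ones in heterozygotes, with overlap of 1 array or more in each. The high-fat diet difference was -0.23 for wild type (SE 0.10, limma adjusted p = 0.716) and 0.28 for heterozygotes (SE 0.10, adjusted p = 0.0892). The difference of these responses was 0.51 (SE 0.13, 95% interval 0.22 to 0.79, unadjusted p = 0.00153), and it was not called after adjustment over all genes (adjusted p = 0.344, or 0.274 without Het_control 2). Cox7a2, the form known from liver, differed by 0.11 in heterozygotes (SE 0.10, adjusted p = 0.444), and by -0.02 without Het_control 2. The mean of 5 skeletal muscle markers was 7.84 to 7.92 in WT_control, 7.78 to 7.87 in WT_HFD, 7.85 to 8.12 in Het_control and 7.81 to 7.94 in Het_HFD. Without Het_control 2 the Het_control mean of these markers was 7.87, beside 7.89 in Het_HFD, and their part in the Cox7a1 levels was not tested.

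Other isoforms known mainly from muscle or testis were lower in value on high-fat diet in heterozygotes. Cox8c, known from testis, read 8.37, 9.09, 8.43 and 8.43 in Het_control and 8.22, 8.09, 8.29 and 8.19 in Het_HFD. The groups did not overlap and Het_control 2 was highest, and the difference was -0.39 (SE 0.12, limma adjusted p = 0.0783), or -0.22 without it. The differences were -0.25 (SE 0.11) for the muscle form Cox6a2, -0.20 (SE 0.12) for the testis form Cox6b2, -0.18 (SE 0.07) for Cox7b2 and -0.15 (SE 0.07) for the muscle form Cox8b. Without Het_control 2 they were -0.12, -0.03, -0.15 and -0.10. The mean level of Cox7b2 lay at the 10.4 percentile of all genes and that of Cox8b at the 32.7 percentile, so these are dim probe sets. Cox6b2 was -0.17 in wild type (SE 0.12), with all high-fat arrays below all control arrays. Ndufa4, once assigned to complex I and now counted as a subunit of complex IV, differed by -0.17 in heterozygotes (SE 0.12, adjusted p = 0.288), and its paralog Ndufa4l2 by -0.13 (SE 0.10, adjusted p = 0.339), or -0.14 and -0.05 without Het_control 2.

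Complex V showed the widest spread, from -0.55 to 0.41 in heterozygotes. Atp5e, the epsilon subunit, read 10.35, 10.12, 10.43 and 10.32 in Het_control and 10.57, 10.65, 10.55 and 10.75 in Het_HFD. The groups did not overlap, and the difference was 0.32 (SE 0.09, limma adjusted p = 0.0616), or 0.26 without Het_control 2. In all, 3 of the 17 members were higher in value without overlap of the groups, where 6.58% of all genes were. The others were Atp5d, the delta subunit, by 0.26 (SE 0.10, adjusted p = 0.103) and Atp5b, the catalytic beta subunit, by 0.19 (SE 0.07, adjusted p = 0.110). Atp5g1, 1 of 3 genes for the membrane ring subunit c, differed by 0.21 (SE 0.08, adjusted p = 0.114). Without Het_control 2 the differences of Atp5d, Atp5b and Atp5g1 were 0.15, 0.11 and 0.13. Atp5md, a small subunit of the membrane part, read 12.66, 11.81, 12.80 and 13.02 in Het_control against 12.98, 13.05, 12.88 and 13.03 in Het_HFD. Its difference of 0.41 (SE 0.17, adjusted p = 0.123) fell to 0.16 without Het_control 2.

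Subunits e and g, which sit side by side where ATP synthase forms dimers, went the other way and shared a pattern over the arrays. Atp5l, subunit g, read 11.19, 11.17, 11.48 and 10.54 in Het_control and 10.35, 10.56, 10.65 and 10.61 in Het_HFD. Atp5k, subunit e, read 10.55, 10.91, 10.63 and 10.05 in Het_control and 10.07, 10.07, 10.27 and 10.09 in Het_HFD. For both, Het_control 1, 2 and 3 were above every other array of the study and Het_control 4 lay with the rest. The wild-type arrays ran from 10.15 to 10.75 for Atp5l and from 9.69 to 10.13 for Atp5k over both diets. The diet difference in heterozygotes was -0.55 for Atp5l (SE 0.16, limma adjusted p = 0.0667) and -0.41 for Atp5k (SE 0.14, adjusted p = 0.0889). Without Het_control 2 they were -0.53 and -0.29, and without Het_control 4 they were -0.74 (adjusted p = 0.00496) and -0.57 (adjusted p = 0.00764). Atp5l is named by 6 probe sets, and their differences ranged from -0.61 to -0.46, all of the same sign. The sources used here do not say which near-identical copies of the gene these probe sets measure, so the level cannot be placed at a single locus.

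**Figure D4:**
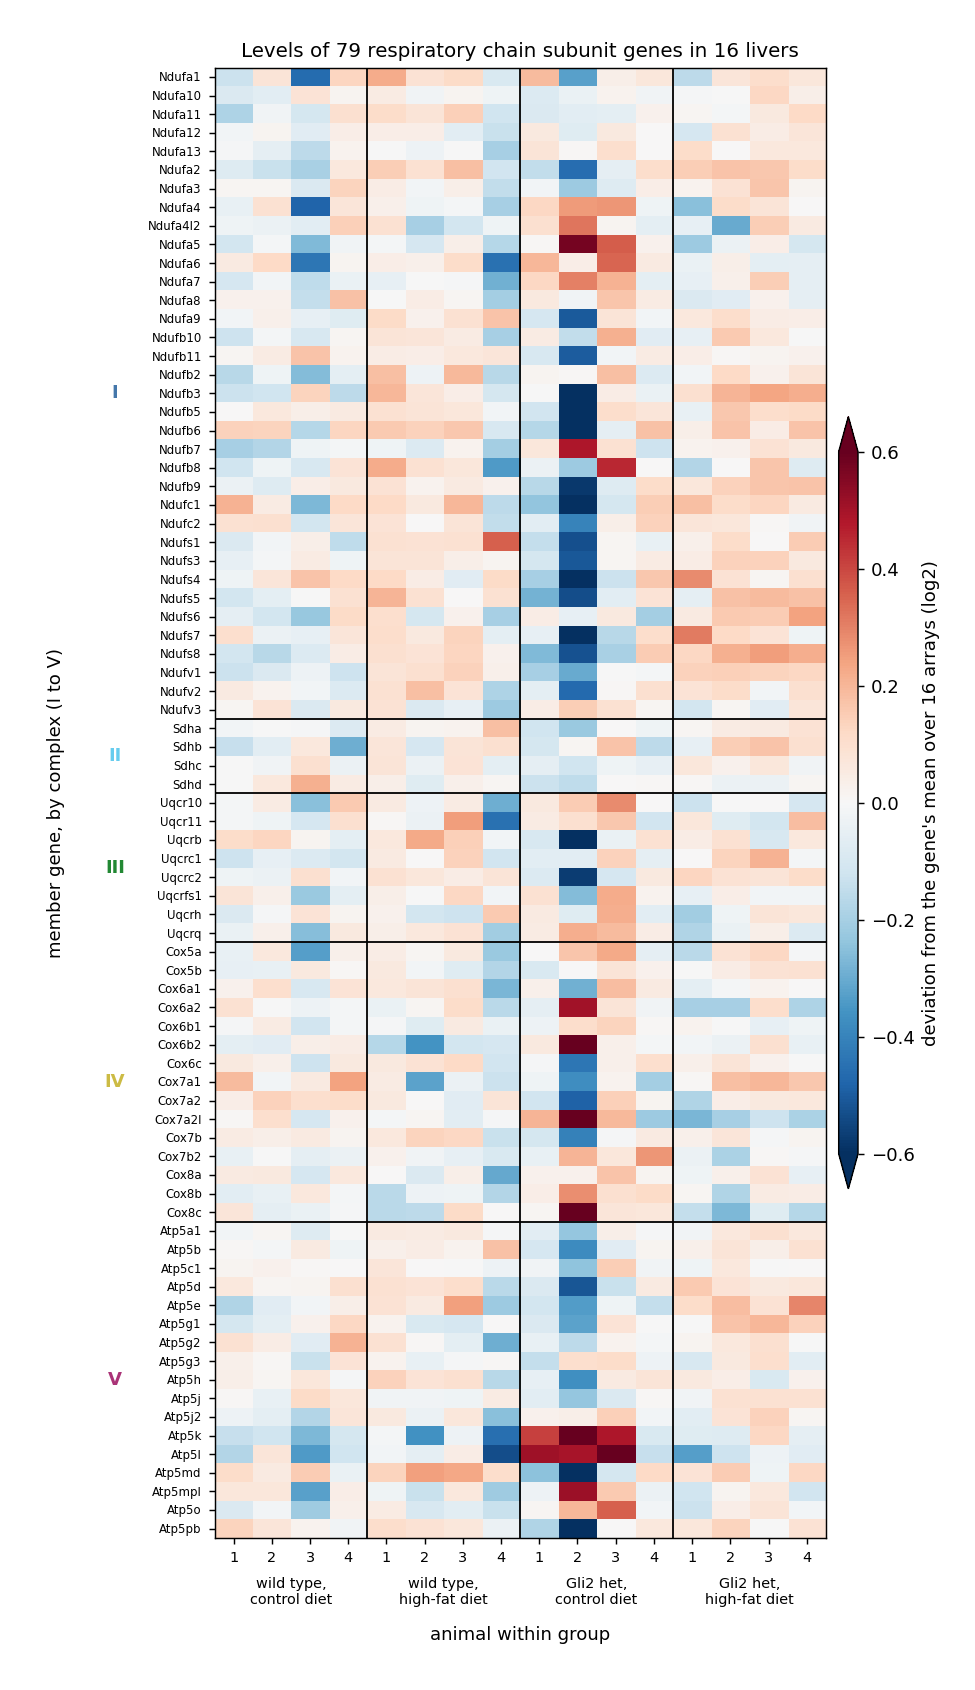
Deviation of each of the 79 members from its 16-array mean (log2, colour scale, saturated beyond 0.6 on either side) in each array, with members ordered by complex on the vertical axis and animals by group on the horizontal axis. The column of Het_control 2 holds 39 members below and 13 above all other arrays; the 3 dark cells each for Atp5k and Atp5l are Het_control 1, 2 and 3.

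The genotypes were compared within each diet next. On control diet, which uses the same Het_control arrays as the diet comparison above, the members did not shift together. No member was called, as for 0% of all genes, and 9 were higher and 7 lower at an unadjusted limma p under 0.05, against 15.7% of all genes in both directions together. The median was -0.02 with 39 of 79 higher in heterozygotes, beside 0.04 over all genes, and it was 0.02 without Het_control 2. Median differences were -0.04 for complex I (16 of 35 higher), -0.07 for complex II (1 of 4), 0.06 for complex III (6 of 8), 0.08 for complex IV (10 of 15) and -0.08 for complex V (6 of 17). Without Het_control 2 complexes I and V turned to 0.02 and 0.00, and after another round of quantile normalization I, II and V turned to 0.03, 0.01 and 0.01, while III and IV kept their sign under both. The 6 nuclear-encoded core subunits of complex I analysed here were all lower in value in heterozygotes, with a median of -0.12, and with a median of -0.00 without Het_control 2.

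Atp5k had the smallest p on control diet, at 0.55 higher in heterozygotes (SE 0.14, 95% interval 0.26 to 0.84, limma adjusted p = 0.279). The WT_control arrays read 10.01, 10.03, 9.88 and 10.04 and lay below every Het_control array. Atp5l differed by 0.56 (SE 0.16, adjusted p = 0.279), with Het_control 4 inside the WT_control range of 10.34 to 10.75. Without Het_control 4 the differences were 0.71 for Atp5k (adjusted p = 0.0419) and 0.74 for Atp5l (adjusted p = 0.0478), and 0.0903% of all genes were then called. Without Het_control 2 they were 0.42 and 0.53 (adjusted p = 0.437 and 0.463). Ndufa5 differed by 0.34 (SE 0.11, adjusted p = 0.279), the accessory subunit Ndufa7 by 0.22 (SE 0.08, adjusted p = 0.290) and Cox7a1 by -0.26 (SE 0.10, adjusted p = 0.287), or 0.23, 0.17 and -0.19 without Het_control 2.

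On high-fat diet no member was called by genotype, against 0.00502% of all genes. At an unadjusted limma p under 0.05, 2 were higher, against 3.57% of all genes in both directions together. The lower count than on control diet is not read as a difference between the diets. Het_control 2 belongs to the control-diet comparison and enters the high-fat one only through the shared estimate of the spread. On high-fat diet the median was 0.03 with 52 of 79 higher in heterozygotes, beside 0.01 over all genes. Cox7a1 differed by 0.25 (SE 0.10, unadjusted p = 0.0191), Ndufs6, a zinc-binding accessory subunit of complex I, by 0.19 (SE 0.09, unadjusted p = 0.0360) and Atp5g1 by 0.17 (SE 0.08, unadjusted p = 0.0535). Ndufa13, another accessory subunit, read 11.29, 11.26, 11.29 and 11.09 in WT_HFD and 11.40, 11.29, 11.35 and 11.35 in Het_HFD, a difference of 0.12 (SE 0.06, unadjusted p = 0.0734) without overlap of the groups. Cox5b, which sits on the matrix side of complex IV, differed by 0.11 (SE 0.06, unadjusted p = 0.103). Adjusted p was above 0.99 for each of these 5.

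Averaged over both diets, no member was called by genotype (0.00502% of all genes) and 8 were higher in heterozygotes at an unadjusted limma p under 0.05, against 7.76% of all genes in both directions together. These were led by Atp5k at 0.37 (SE 0.10, unadjusted p = 0.00149, adjusted p = 0.573), followed by Ndufa7 at 0.16 (SE 0.06), Ndufb7, a membrane arm subunit of complex I, at 0.18 (SE 0.07), Ndufa13 at 0.11 (SE 0.04) and Atp5l at 0.28 (SE 0.12). Without Het_control 2 these 5 differences were 0.31, 0.14, 0.12, 0.11 and 0.27. Gli2 itself differed by 0.08 (SE 0.07, adjusted p = 0.632), and by 0.00 without Het_control 2. The diet by genotype interaction called no member (0% of all genes), with 3 higher and 3 lower at an unadjusted p under 0.05 against 8.13% of all genes. After Cox7a1, the smallest p-values belonged to Atp5l at -0.55 (SE 0.23, adjusted p = 0.565), Ndufa5 at -0.36 (SE 0.15, adjusted p = 0.573), the stator subunit Atp5j at 0.20 (SE 0.09, adjusted p = 0.588) and Cox7a2l at -0.38 (SE 0.17, adjusted p = 0.592). Without Het_control 2 these 4 were -0.53, -0.25, 0.15 and -0.23.

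Among the fits that each left out 1 array, the one without Het_control 4 moved the count of called members most. Without Het_control 4, 21 members were called by diet in heterozygotes, 16 higher and 5 lower, while 17.3% of all genes were called, 1868 higher and 1578 lower. Complex I held 10 of the 16 higher members: Ndufs8, Ndufb9, Ndufv1, Ndufs5, Ndufs4, Ndufa2, Ndufc1, Ndufs7, Ndufs3 and Ndufb6. Complex V held 5, Atp5d, Atp5md, Atp5b, Atp5e and Atp5pb, and complex III held Uqcrc2. The 5 lower members were Cox7a2l, Cox8c, Atp5l, Atp5k and Ndufa5. With all arrays, Ndufa2 differed by 0.29 (SE 0.10, limma adjusted p = 0.0926), Ndufc1 by 0.32 (SE 0.13, adjusted p = 0.122), Ndufb6 by 0.36 (SE 0.17, adjusted p = 0.154) and Atp5pb, the stator subunit b, by 0.25 (SE 0.11, adjusted p = 0.128). Without Het_control 2 these 4 differed by 0.18, 0.18, 0.12 and 0.11. The other, dimmer probe set of Atp5pb differed by only 0.03 (SE 0.06) with all arrays. The direction of each of the 21 members was the same with all arrays, and leaving out any other array gave 0 or 1 called member. Het_control 1 and Het_control 4 each have a title number found on no other Het_control array, while Het_control 2 and Het_control 3 share theirs. The meaning of these numbers is not stated.

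**Figure D5:**
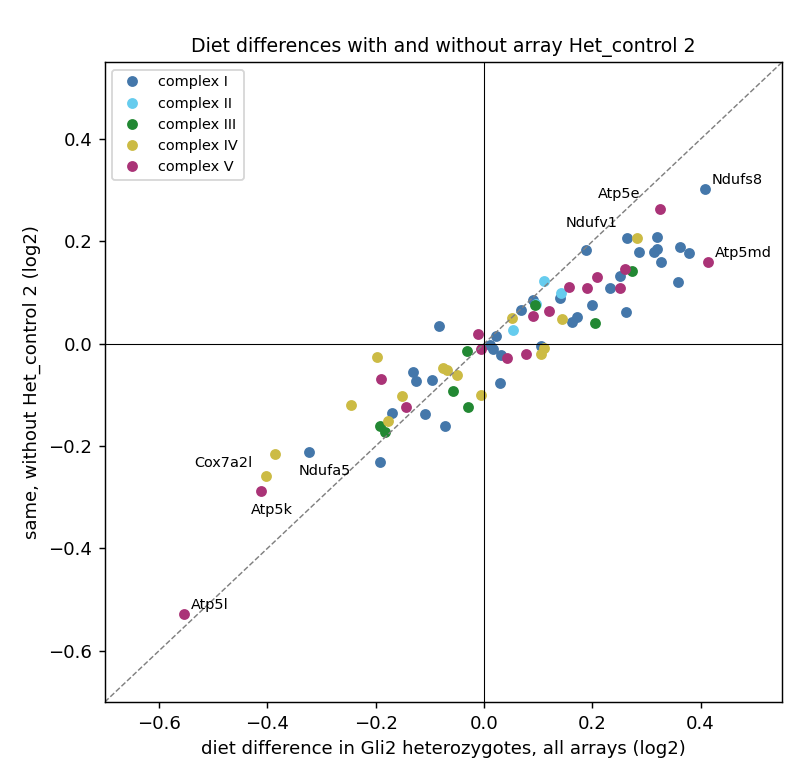
Diet difference in heterozygotes (log2) of each member with all arrays (horizontal axis) and without Het_control 2 (vertical axis), coloured by complex; the dashed line marks equal values. Most members lie nearer to 0 on the vertical axis, as for Atp5md (0.41 and 0.16), while Atp5l stays near the line (-0.55 and -0.53).

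Genes that build or feed the chain were counted beside the members. These lists are named by function and were chosen with earlier results of these data known. Of 40 measured assembly factors, which insert cofactors and join subunits, 36 were higher in value in heterozygotes on high-fat diet, with a median of 0.22 (34 and 0.16 without Het_control 2), and 31 in wild type, with a median of 0.09. Without Het_control 2, diet called 1 of the 40 in heterozygotes, where 0.873% of all genes were called. With all arrays 2 of the 40 were called, where 2.22% of all genes were. That is a larger share, but a count of 2 is too small to be read as a result about the list. The 2 called were Acad9, a complex I assembly factor of the acyl-CoA dehydrogenase family, by 0.34 (SE 0.07, limma adjusted p = 0.0352), and Bcs1l, which inserts the iron-sulfur protein into complex III, by 0.44 (SE 0.11, adjusted p = 0.0455). Both had groups without overlap. Without Het_control 2, Acad9 was still called (0.29, adjusted p = 0.0481) and Bcs1l was not (0.36, adjusted p = 0.0799). Over the 16 fits without 1 array, Acad9 passed in 10 and Bcs1l in 2. In wild type Acad9 differed by 0.19 (SE 0.07, adjusted p = 0.624), Bcs1l by 0.10 (SE 0.11, adjusted p = 0.946) and Foxred1, another complex I assembly factor, by 0.24 (SE 0.07, adjusted p = 0.478).

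Of 12 citric acid cycle genes, which supply NADH and succinate, none was called, and 11 were higher in value in each genotype, with a median of 0.23 in heterozygotes (0.13 without Het_control 2) and 0.06 in wild type. Dlst, a subunit of the 2-oxoglutarate dehydrogenase complex, had the smallest p for heterozygotes (0.26, SE 0.08, limma adjusted p = 0.0723, or 0.19 without Het_control 2). Sucla2, a succinyl-CoA ligase subunit, had it for wild type (0.16, SE 0.10, adjusted p = 0.885). Of 11 ubiquinone synthesis genes, none was called and 9 were higher in value in each genotype, with medians of 0.14 and 0.11. Coq2, which joins ring and tail of ubiquinone, differed by 0.31 in heterozygotes (SE 0.08, adjusted p = 0.0504), and Pdss2, which makes the tail, by 0.33 in wild type (SE 0.08, adjusted p = 0.325), each with groups apart. Of 17 regulators of mitochondrial gene expression none was called. Their median was 0.04 in heterozygotes (-0.00 without Het_control 2) and 0.08 in wild type, with the mitochondrial DNA polymerase subunit Polg2 at 0.30 in heterozygotes (SE 0.10, adjusted p = 0.0819) and the single-stranded DNA binding protein Ssbp1 at 0.27 in wild type (SE 0.08, adjusted p = 0.493).

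Of 10 subunits and electron carriers outside the symbol rule, 7 were higher in value in heterozygotes, with a median of 0.23 (0.13 without Het_control 2), and none was called. Cox4i2, the subunit IV isoform known from lung, was lower in value on high-fat diet in both genotypes without overlap of the groups, by -0.22 for heterozygotes (SE 0.06, limma adjusted p = 0.0678) and -0.13 for wild type (SE 0.06, adjusted p = 0.791). Its partner Cox4i1, the widespread isoform, differed by 0.27 between genotypes on control diet (SE 0.11, adjusted p = 0.298), or by 0.21 without Het_control 2. Only 2 subunits encoded by mitochondrial DNA were named singly. COX2 differed by 0.09 in heterozygotes (SE 0.08, adjusted p = 0.408), or by 0.01 without Het_control 2, and ND3 by -0.02 in wild type (SE 0.08, adjusted p = 0.993). Of 9 carriers of adenine nucleotides, phosphate and protons none was called, with Ucp1, the proton carrier of brown fat, at -0.20 in heterozygotes (SE 0.06, adjusted p = 0.0766; -0.14 without Het_control 2) and the adenine nucleotide carrier Slc25a4 at -0.09 in wild type (SE 0.09, adjusted p = 0.941). Of 10 muscle and brown fat genes 1 was higher in value in heterozygotes, with a median of -0.09, and 4 were without Het_control 2, with a median of -0.02, and none was called. Tnnt3, a troponin of fast muscle, differed by -0.18 in wild type (SE 0.08, adjusted p = 0.742).

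Within groups, the members varied together to a modest degree. After the mean of each group was taken away, the median correlation over 16 arrays was 0.365 between members of the same complex and 0.249 between members of different complexes. Without Het_control 2 these were 0.262 and 0.219, a smaller gap. By complex the median was 0.414 for I, 0.399 for II, 0.205 for III, 0.133 for IV and 0.390 for V, and without Het_control 2 it was 0.279, 0.452, 0.150, 0.221 and 0.259. The points are arrays normalized together, so these values are a description. Next to Het_control 2, WT_HFD 4 was lowest of all arrays in 17 members and WT_control 3 in 10, with mean deviations over the 79 members of -0.10 and -0.07, and Het_control 3 was highest in 18, with a mean deviation of 0.08.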

How the data were processed

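The deposited table holds log2 expression values, 1 per probe set and array, which the authors made in Affymetrix Expression Console by RMA, per the submitters' processing notes. RMA subtracts background, brings the probe intensities of the arrays to a common distribution and summarises each probe set, so a shift of all transcripts at once would not be seen. Versions and the array's genome build: not given in the sources used here. Of 35556 probe sets, 21789 had 1 gene symbol and were used, while 1621 with several and 12146 with none were not. This left out Cox7c and Ndufb4, whose probe sets carry several symbols. Updating symbols changed 0 genes. The 16 members with more than 1 probe set were represented by the brightest. All their probe sets had the same sign in the heterozygous diet comparison, but the sizes could differ, as for Atp5pb.

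Tests used limma 3.58.1 under R 4.3.3 (lmFit, eBayes; statmod 1.5.0 for the random block) in 1 fit over 16 arrays with 4 group means, and p-values were adjusted over all 19938 genes by the Benjamini-Hochberg method. The fit was tested on simulated data. Arrays are treated as separate animals, and 4 per group limits the precision. The titles hold 11 numbers of unstated meaning, of which 5 were on more than 1 array, all 11 in 1 genotype only and 1 in both diets. Whether animals with a shared number are related is not stated, and p-values treat them as independent.

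The gene family and the lists were proposed with earlier results of these data known, and members were then taken by symbol alone. Named are the called members, the 5 with the smallest p where none was called, the smallest p of each complex and list in the diet comparisons, and the isoforms with a larger difference. In the genotype and interaction comparisons list genes are mostly only counted. Other members of complexes I, III and V named in heterozygotes, the genes between Ndufs8 and Ndufv1, and the pair whose promoters hold an NRF1 motif were chosen after their values were seen. Alternatives were leaving out each array, fitting only the groups compared, repeated quantile normalization, trend and robust moderation, array weights, all probe sets, a filter on dim genes, updated symbols and a random block by title number.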

Additional observations from a re-analysis of the deposited data

Results flagged for a closer look

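In 12 of 108 groups of 4 arrays tested, 1 array lay further from the other 3 than Dixon's 95% critical value allows, where chance gives about 1 in 20. Of these, 4 were single genes in WT_HFD 4. There Ndufs1 read 11.0268 against 10.7564 to 10.7622 in the others, Ndufa7 read 10.4665 against 10.7057 to 10.7531, Ndufa13 read 11.0908 against 11.2604 to 11.2896, and Atp5j read 12.9296 against 12.8575 to 12.8617. The same array was the lowest of all 16 in 17 members.

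Sdhb read 11.7216 in WT_HFD 2 against 11.8957 to 11.9210, and the mean of the 4 complex II genes was 12.23305 in that array against 12.33223 to 12.33822. Atp5j read 12.8618 in Het_HFD 1 against 12.9713 to 12.9757, and the mean of the 8 complex III genes was 11.71024 in it against 11.77236 to 11.77819.

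In other arrays, Uqcrc1 read 11.9794 in Het_control 3 against 11.7784 to 11.7868, Sdha read 12.7625 in WT_control 4 against 12.8298 to 12.8420, Uqcrc2 read 13.0365 in WT_control 3 against 12.9019 to 12.9217, and Atp5k read 10.2703 in Het_HFD 3 against 10.0677 to 10.0902. None of the 12 lay in Het_control 2 or Het_control 4. The former differed most from the other arrays, and leaving out the latter moved the count of called members most.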

How the results depend on the processing

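The count of members called by diet in heterozygotes depended on nearly every choice. From 2 with all arrays (limma), it ranged from 0 to 21 when 1 array was left out, the 21 being without Het_control 4, and was 0 with only the groups compared, 1 with repeated quantile normalization, 1 with trend and robust moderation, 5 with array weights (3 higher, 2 lower, 1067 genes in all) and 34 with a random block by title number (25 higher, 9 lower, 6938 genes in all). That block had a consensus correlation of -0.37 and the number's meaning is not stated. The count was the same with all probe sets, without dim genes (75 of 79 members kept) and with updated symbols. Ndufs8 and Ndufv1 kept their direction in all 24 alternatives, but many of these could not change the difference itself. Such were leaving out a wild-type array, fitting only the groups compared, and changes of moderation, probe sets, dim filter or symbols. Limma adjusted p ranged from 0.00219 to 0.232 for Ndufs8 and from 0.00714 to 0.236 for Ndufv1. Of the 8 alternatives that left no array out, Ndufs8 passed in 7 and Ndufv1 in 5. On control diet the count called by genotype was 0 to 2 when 1 array was left out (2 without Het_control 4). In the other 4 comparisons it was 0 in every alternative run.

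The median difference of the members in heterozygotes by diet was 0.01 with repeated quantile normalization (0.00714) and with array weights (0.01184), against 0.0784, and by genotype on control diet 0.0481 with repeated quantile normalization, against -0.01815. Leaving out 1 array gave 0.02618 to 0.10272 for the former and -0.04395 to 0.02223 for the latter. Of 2257 recomputed values of 95 single differences, 2126 kept direction and side of the threshold, 56 lost the call, 69 gained it and 6 changed sign. Many of these values repeat the same difference, since leaving out an array of another group cannot change it. The sign changes were ND3 in wild type (0.01325 without WT_control 1, 0.00022 without WT_control 2, 0.01541 without WT_HFD 1 and 0.02561 without WT_HFD 4, with -0.05376 without WT_HFD 2 as the lowest value) and Cox7a2 in heterozygotes (-0.01898 without Het_control 2 and -0.03586 with array weights, with 0.18946 without Het_control 3 as the highest value). No paired analysis was possible because the labels carry no replicate numbers; the numbers in this text were given in accession order. For these alternatives the cause was not tested.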
